A study of Mus musculus with 9 samples.

Results

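The Ly6 surface antigens studied here are 6 mouse genes, Ly6a, Ly6c1, Ly6c2, Ly6e, Ly6g and Ly6i, which were taken by symbol from a table of 46517 genes. All 6 were found, each under 1 Ensembl gene ID, and all 6 passed the low-count filter that left 14059 genes for testing. Their levels were followed over 9 RNA sequencing libraries of mouse monocytes, 3 of each of the subsets that the labels call conventional (cMo), intermediate (intMo) and patrolling (pMo), with libraries numbered 0, 1 and 2. Every group consisted of wild-type C57BL/6 primary cells handled in vitro and carried no other allele or agent in the labels. The series title speaks of pMo obtained from bone marrow in OP9-DLL1 culture, in which OP9 stromal cells present the Notch ligand Dll1. The design text repeats the cMo name where the sample labels have pMo, and the sample labels were followed. Mouse age, sorting and any pooling of animals are not stated in the sources used here. Nothing in the labels shows that the 3 libraries of a subset were separate cultures or mice. The p-values hence reflect only the spread between these libraries, which may be technical.

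Ly6 proteins are small, disulfide-bonded domains that are tethered to the outer face of the plasma membrane by a glycosylphosphatidylinositol (GPI) anchor. Haematology uses them as surface markers: Ly6C separates classical from patrolling monocytes, Ly6G marks neutrophils, and Ly6A, known as Sca-1, marks haematopoietic stem cells, endothelium and interferon-exposed leukocytes. Ly6E, also known as Sca-2 or thymic shared antigen 1, is widely expressed and interferon-inducible, and Ly6I is a less studied member of the same gene cluster. The antigen called Ly6C is encoded by both Ly6c1 and Ly6c2, which an antibody to the protein need not tell apart.

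The 6 genes lie in 1 stretch of chromosome 15 of GRCm38 (mm10), and the GENCODE M21 annotation lists each as protein coding. Ly6e (ENSMUSG00000022587.13) spans 74955051 to 74959905 on the plus strand and Ly6i (ENSMUSG00000022586.10) spans 74979534 to 74983430 on the minus strand. Ly6a (ENSMUSG00000075602.9) spans 74994877 to 74998031, Ly6c1 (ENSMUSG00000079018.9) spans 75044018 to 75048830 and Ly6c2 (ENSMUSG00000022584.13) spans 75108158 to 75111970, all on the minus strand. Ly6g (ENSMUSG00000022582.4) spans 75155240 to 75159126 on the plus strand. Ly6e stood apart in sequence, with 49.7% to 52.3% identity of its aligned coding sequence to the others, while Ly6a and Ly6i were 86.3% identical.

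The pair that matters for reading the counts is Ly6c1 and Ly6c2. Their coding sequences without the stop codon are 393 bases each and are identical at 384 of them (97.7%). The first 90 bases of the coding sequence are shown 5′ to 3′, from the principal GENCODE M21 transcripts, because few coding bases tell these genes apart. The untranslated parts of the transcripts, which also serve to divide reads, are not shown. Capitals mark the bases that differ.
Ly6c1: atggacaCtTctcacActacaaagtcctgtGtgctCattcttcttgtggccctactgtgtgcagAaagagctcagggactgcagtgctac
Ly6c2: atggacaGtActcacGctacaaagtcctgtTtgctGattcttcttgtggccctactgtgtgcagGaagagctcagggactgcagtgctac
These 90 bases hold 6 of the 9 differences, so the rest of the coding sequence differs at only 3 bases.

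Kallisto assigns reads by short words of sequence, by default of 31 bases, and the setting used is not stated in the labels. Only 42.9% of the 31-base words of the principal Ly6c1 transcript and 46.2% of those of Ly6c2 occurred in no other gene of the annotation. Ly6c1 shared 48.0% of its words with Ly6c2. The share of words found in no other gene was 77.9% for Ly6a, 80.3% for Ly6i, 90.5% for Ly6g and 99.2% for Ly6e. The division of reads between Ly6c1 and Ly6c2 is therefore uncertain, that among Ly6a, Ly6i and their neighbours less so, and Ly6e has almost no sequence to share.

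The sequence upstream of the pair differed more than the coding sequence did. RefSeq promoter sequences of GRCm38.p6 were at hand for 3 of the members, Ly6c1, Ly6c2 and Ly6g, each with a pair of annotated starts. The 250 bases before the more upstream start are shown for Ly6c1 and Ly6c2, whose levels fell together in the comparisons below. The Ly6c1 window is chr15:75048838-75049087 and the Ly6c2 window is chr15:75111972-75112221, both on the minus strand, with capitals for the letters GAGGAAG, which is the form of PU.1 site searched on both strands.
Ly6c1 upstream: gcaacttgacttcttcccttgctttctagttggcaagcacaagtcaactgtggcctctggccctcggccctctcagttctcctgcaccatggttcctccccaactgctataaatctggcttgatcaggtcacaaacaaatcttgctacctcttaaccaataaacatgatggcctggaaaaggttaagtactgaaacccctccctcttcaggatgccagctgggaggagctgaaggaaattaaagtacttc
Ly6c2 upstream: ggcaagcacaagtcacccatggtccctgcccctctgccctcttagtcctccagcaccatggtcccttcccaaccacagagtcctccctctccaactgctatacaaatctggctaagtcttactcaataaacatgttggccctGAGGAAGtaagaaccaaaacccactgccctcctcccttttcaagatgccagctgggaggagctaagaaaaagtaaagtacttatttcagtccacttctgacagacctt
Aligned over their whole length with gaps counted, these windows were identical at 164 of 284 columns (57.7%). They end at different annotated starts and are not in register, so unmatched ends count as differences in this value. GAGGAAG began 108 bases before the start in the Ly6c2 window and was absent from the Ly6c1 window, but it occurred in the window of the other Ly6c1 start, 127 bases before it. The Ly6g window held it 31 bases before the start. Of 32851 promoter windows of this length in the RefSeq table, 10.6% held GAGGAAG. None of the windows of Ly6c1, Ly6c2 or Ly6g held a core interferon-stimulated response element (held by 3.0% of all windows), TTCNNNGAA, a gamma-activated site (7.0%), or TTNNGNAAT, a C/EBP site (10.2%). These matches describe letters in these windows only.

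Library totals lay between 18455116 and 29985684 estimated counts. Within each subset, library 0 stood apart: log2 CPM (counts scaled by the TMM-adjusted library total) of libraries 1 and 2 correlated at 0.986 to 0.99, while correlations with library 0 were 0.951 to 0.975. The Ly6 genes took part in this. In intMo and pMo, all 6 were lower in library 0 than in the mean of libraries 1 and 2, by log2 differences from -0.73 (Ly6c1 in pMo) to -4.16 (Ly6g in pMo). The median over all tested genes was 0.00 in both subsets. In cMo the log2 differences ran from -1.15 (Ly6i) to 2.54 (Ly6g). The fits are therefore given for all 9 libraries and again for libraries 1 and 2 alone, where 2 libraries per subset remain. Library 0 was set aside after its difference was seen in these same data. The p-values of the smaller fit thus rest on a spread narrowed by that choice and are too small to take at face value. The subset labels were checked against marker lists: the 14 conventional monocyte genes summed to 14297 to 29832 CPM in cMo, 4025 to 11057 in intMo and 6094 to 11488 in pMo, and the 18 patrolling monocyte genes to 2124 to 2548, 5029 to 5855 and 13626 to 16243 CPM. In summed level cMo stood above the other subsets on the first list, and the 3 subsets were ordered as labelled on the second. Lyz2 was the largest part of the first sum, at 7506, 13371 and 17724 CPM in cMo libraries 0, 1 and 2. Not every gene of the second list kept the order of its sum: Spn, Ceacam1 and Cebpb, among others, averaged lower in intMo than in cMo.

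Which Ly6 genes distinguish the subsets was asked in 3 pairwise comparisons, each a contrast of 1 edgeR quasi-likelihood fit, and a gene was called where its p, adjusted by Benjamini and Hochberg's method across the 14059 genes, was under 0.05. In intMo against cMo, Ly6a was called higher and Ly6c1 and Ly6c2 lower, which is 3 of 6 members beside 24.4% of all genes tested (14.0% higher and 10.4% lower). In pMo against intMo, Ly6i was called higher, 1 of 6 members beside 4.99% of all genes (3.29% higher). In pMo against cMo, Ly6a and Ly6i were called higher and Ly6c1 and Ly6c2 lower, 4 of 6 members beside 33.1% of all genes (17.2% higher and 15.9% lower). Asked whether any subset differed, the same fit called Ly6a, Ly6c1, Ly6c2 and Ly6i, beside 33.0% of all genes, although Ly6a missed the threshold without cMo library 0 (edgeR adjusted p = 0.0575) or without cMo library 1 (0.0516). In libraries 1 and 2 alone, 4 members were called in intMo against cMo (27.8% of all genes), 2 in pMo against intMo (17.1%) and 5 in pMo against cMo (37.7%), and 5 where any subset differed (38.1%). The added calls were those of Ly6g in both comparisons with cMo and of Ly6c2 in pMo against intMo. The comparisons share libraries and are not independent of each other. In bulk RNA, fewer cells of a type and less RNA per cell cannot be told apart.

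**Figure D1:**
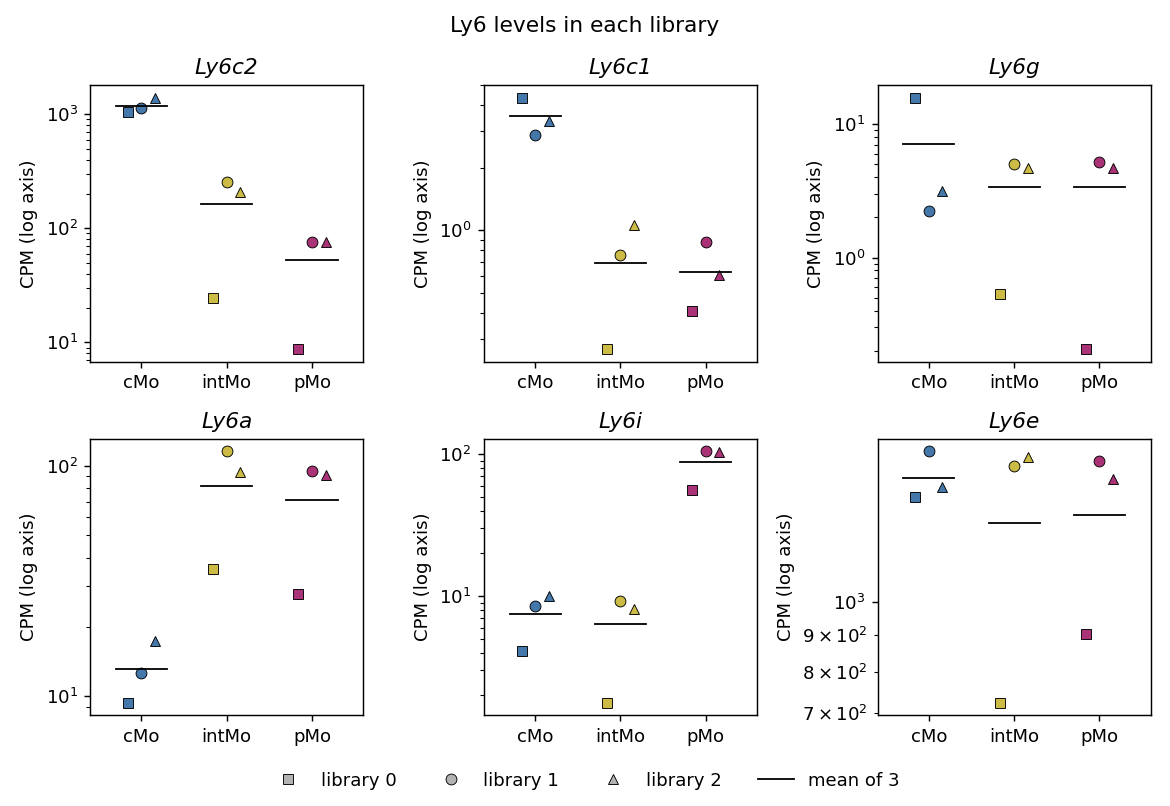
CPM (log axis) of the 6 Ly6 genes in each of the 9 libraries, with a line at the mean of 3 libraries per subset. Ly6c2 falls from 1190 CPM in cMo to 53.2 in pMo, Ly6i stands at 55.6 CPM or more in pMo and at 9.94 or less elsewhere, and library 0 (squares) of intMo and pMo is the lowest of its subset in every panel.

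Ly6c2, which encodes the main Ly6C of monocytes, had the largest log2 change of the 6 members in both comparisons with cMo. It stood at 1038, 1130 and 1401 CPM in cMo libraries 0, 1 and 2, at 24.5, 256 and 207 CPM in intMo, and at 8.71, 75.5 and 75.3 CPM in pMo. The cMo libraries were all above all others, while intMo library 0 lay below pMo libraries 1 and 2. Relative to cMo, Ly6c2 was 7.31-fold lower in intMo (log2 -2.87 ± 0.90 SE, edgeR adjusted p = 0.0466). It was 22.4-fold lower in pMo (log2 -4.48 ± 0.97, edgeR adjusted p = 0.00772). The level thus fell in both subsets beside cMo. Between pMo and intMo it was not called, at a log2 difference of -1.61 with a 95% interval of -3.56 to 0.34 (edgeR adjusted p = 0.371). In libraries 1 and 2 alone that difference was of the same size and was called lower (log2 -1.62, edgeR adjusted p = 0.000339).

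Of the 8 member calls, the intMo call of Ly6c2 was the one that the omission of a single library could end. It was lost on leaving out any of 8 single libraries, all but pMo library 0, with log2 values from -3.36 to -2.35 and edgeR adjusted p up to 0.101. Libraries 1 and 2 alone gave a log2 of -2.44 (edgeR adjusted p = 2.06e-05). Of the 14 conventional monocyte genes listed, 8 were called lower in intMo than in cMo, beside 10.4% of all genes, and 0 higher by edgeR, also 0 higher at an unadjusted p under 0.05 and 0 by DESeq2. The list median was -1.56 beside -0.01 over all genes. Restricted to libraries 1 and 2, 10 were lower, beside 11.9% of all genes, and 2 higher, beside 15.8%. The latter were Plac8 (log2 0.54, edgeR adjusted p = 0.0455) and Ifi27l2a (log2 1.07, edgeR adjusted p = 0.000694), named after their values were seen. Fn1, which encodes fibronectin, was lower by a log2 of -3.18 (edgeR adjusted p = 0.00474), and F13a1, a coagulation factor subunit, by -2.51 (edgeR adjusted p = 0.0125).

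Ly6c1 had far fewer counts than Ly6c2. Its counts were 121, 82 and 93 in cMo, 5, 18 and 32 in intMo and 10, 25 and 14 in pMo, which correspond to 4.35, 2.88 and 3.35 CPM, 0.268, 0.764 and 1.06 CPM, and 0.411, 0.875 and 0.612 CPM. All cMo libraries were above all libraries of the other subsets, and intMo and pMo overlapped. The level was 4.92-fold lower in intMo than in cMo (log2 -2.30 ± 0.48, edgeR adjusted p = 0.00906) and 5.51-fold lower in pMo than in cMo (log2 -2.46 ± 0.48, edgeR adjusted p = 0.00477). Both calls held in libraries 1 and 2 alone, at log2 values of -1.75 (edgeR adjusted p = 0.00525) and -2.04 (edgeR adjusted p = 0.0019). The pMo against intMo difference was -0.16 on the log2 scale with a 95% interval of -1.27 to 0.94.

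Because the pair shares so much sequence, the portion of Ly6c1 in the summed counts of both genes was computed per library. It was 0.418%, 0.255% and 0.238% in cMo, 0.298%, 0.509% and 1.08% in intMo libraries 1, 2 and 0, and 0.806%, 1.15% and 4.5% in pMo libraries 2, 1 and 0. The highest value of intMo and of pMo came from library 0, where the pair had fewest counts: 10 of 222 counts in pMo library 0 gave a Wilson 95% interval of 2.46% to 8.09%. The pMo libraries all lay above the cMo libraries, and the other pairs of subsets overlapped. By an exact two-sided permutation test the pMo and cMo shares (means 2.15% and 0.304%) gave p = 0.1, which is the smallest p that 3 against 3 libraries allow, and 0.2 after adjustment over the 3 pairs. How far reads of Ly6c2 were counted as Ly6c1 was not tested. With the counts of both genes summed, the sum was lower in intMo than in cMo by the same size as Ly6c2 alone (log2 -2.87, edgeR adjusted p = 0.0453).

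Ly6a, the gene of Sca-1, ran opposite to the Ly6C genes. It stood at 9.36, 12.6 and 17.4 CPM in cMo libraries 0, 1 and 2, at 35.6, 116 and 94.2 CPM in intMo and at 27.8, 94.8 and 91.8 CPM in pMo. Every intMo and pMo library was above every cMo library, and library 0 was the lowest in each subset. The level was 6.24-fold higher in intMo than in cMo (log2 2.64 ± 0.55, edgeR adjusted p = 0.00945). It was 5.46-fold higher in pMo than in cMo (log2 2.45 ± 0.55, edgeR adjusted p = 0.00898). Ly6a thus rose in both subsets beside cMo, and libraries 1 and 2 alone gave log2 values of 2.82 and 2.65. In pMo against intMo the difference was -0.19 on the log2 scale, with a 95% interval of -1.36 to 0.97 (edgeR adjusted p = 0.903).

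Several marker lists were set beside Ly6a. The 24 interferon-stimulated genes summed to 523 to 1865 CPM in cMo, 1919 to 4593 in intMo and 1496 to 4135 in pMo, with no gene at 0, and library 0 was the lowest of each subset as it was for Ly6a. Of these 24 genes, 5 were called higher in intMo than in cMo and 0 lower (list median log2 1.26), beside 14.0% of all genes called higher. In pMo against cMo, 3 of the 24 were called higher and 0 lower (list median log2 1.31), beside 17.2% of all genes called higher. The shares called lay near those of all genes, so nothing about the list is read from these counts. In libraries 1 and 2 alone, 23 of the 24 were called higher in intMo than in cMo, beside 15.8% of all genes. The p-values of that fit are too small to take at face value. The part of interferon-stimulated genes in the Ly6a difference was not tested.

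Sca-1 also marks other cell types, so their lists are given beside it. The 16 stromal and OP9 feeder genes summed to 10.9 to 26.9 CPM in cMo, 246 to 855 in intMo and 281 to 573 in pMo, with Dcn at 0 in all libraries and Cxcl12 the most abundant. Of the 14 tested, 12 were called higher in intMo than in cMo, beside 14.0% of all genes, and 12 in pMo than in cMo, beside 17.2%, led by collagen genes such as Col3a1 (log2 6.16 ± 0.86 in intMo, edgeR adjusted p = 0.00142). Within intMo and pMo, library 0 held the highest stromal sum and the lowest Ly6a level. The 12 endothelial genes summed to 48.2 to 83.1 CPM in cMo, 86.7 to 138 in intMo and 91.1 to 179 in pMo, with Cldn5 at 0. The 12 stem and progenitor genes summed to 154 to 292, 77.8 to 100 and 33.8 to 60.9 CPM in the same order. Of 9 tested, 1 was called higher and 2 lower in intMo than in cMo, beside 14.0% and 10.4% of all genes. In pMo against cMo 1 was called higher and 5 lower, beside 17.2% and 15.9%. The part of stromal, endothelial or stem and progenitor RNA in the Ly6a difference was not tested.

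**Figure D2:**
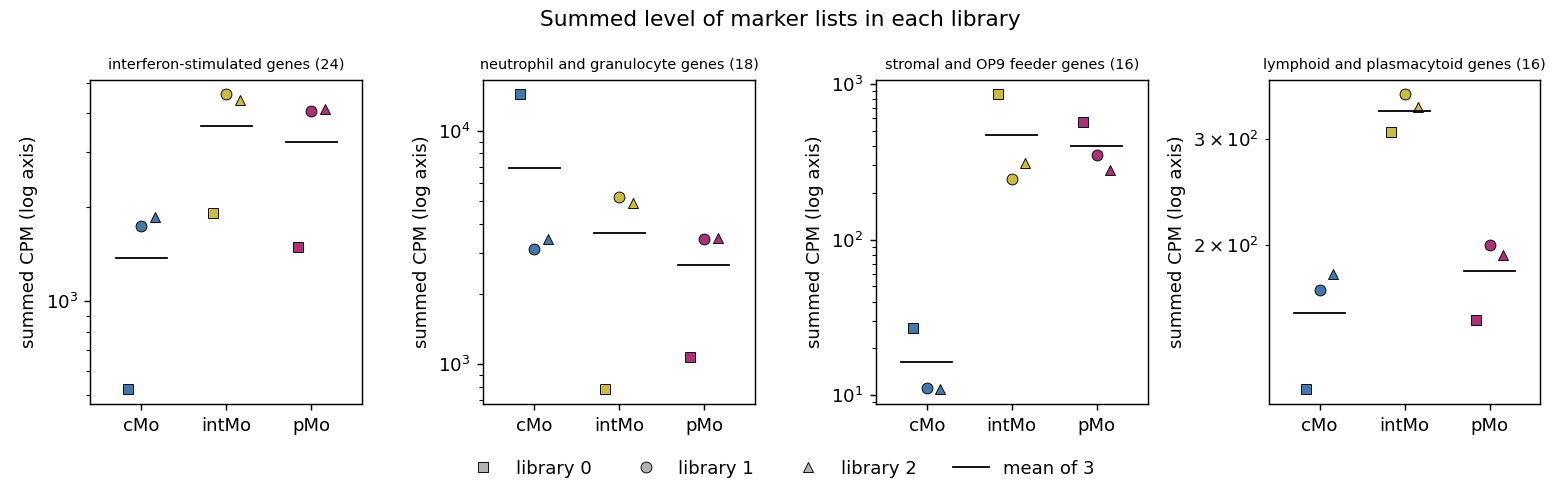
Summed CPM (log axis) of 4 marker lists in each library, with a line at the mean of 3 libraries and the number of listed genes in the panel titles. Library 0 (squares) is the lowest of each subset for interferon-stimulated genes, the highest of each subset for stromal genes, and the highest in cMo but the lowest in intMo and pMo for neutrophil genes.

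Ly6i, the member closest to Ly6a in coding sequence, had its high levels in pMo. It stood at 4.1, 8.47 and 9.94 CPM in cMo libraries 0, 1 and 2, at 1.77, 9.21 and 8.09 CPM in intMo and at 55.6, 105 and 103 CPM in pMo. All pMo libraries were above all others, and cMo and intMo overlapped. The level was 13.7-fold higher in pMo than in intMo (log2 3.78 ± 0.59, edgeR adjusted p = 0.00871). It was 11.7-fold higher in pMo than in cMo (log2 3.55 ± 0.58, edgeR adjusted p = 0.00206). Both calls held on leaving out any single library, and libraries 1 and 2 alone gave log2 values of 3.59 and 3.51. The intMo against cMo difference was -0.23 on the log2 scale with a 95% interval of -1.45 to 1 (edgeR adjusted p = 0.798).

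Ly6i and Ly6a thus parted in the step from intMo to pMo, where Ly6i was called and Ly6a was not, although the difference between these changes was not tested. Genes of patrolling monocytes were called higher in that step in 14 of 18 cases and lower in 0, with a list median log2 of 1.65, beside 3.29% of all genes called higher. Ace, the angiotensin-converting enzyme that patrolling monocytes carry, rose with them (log2 4.71 ± 0.49, edgeR adjusted p = 0.00136). The interferon-stimulated genes had 0 of 24 called in that step by edgeR with all 9 libraries, also 0 at an unadjusted p under 0.05 and 0 by DESeq2, and 3 of 24 lower in libraries 1 and 2 alone, beside 9.67% of all genes.

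Ly6e was among the most abundant members and was called in no comparison. It stood at 1402, 1625 and 1446 CPM in cMo libraries 0, 1 and 2, at 724, 1547 and 1593 CPM in intMo and at 904, 1574 and 1488 CPM in pMo. The 3 subsets overlapped, and the lowest values were those of intMo and pMo library 0. The log2 differences were -0.21 in intMo against cMo (95% interval -0.89 to 0.47), 0.04 in pMo against intMo (-0.64 to 0.72) and -0.17 in pMo against cMo (-0.85 to 0.51). The 3 log2 differences in libraries 1 and 2 alone were 0.04, -0.04 and -0.00, with standard errors of 0.12.

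Ly6g, the neutrophil antigen, was low and depended most on single libraries. Its counts were 442, 64 and 88 in cMo libraries 0, 1 and 2, 10, 118 and 141 in intMo and 5, 150 and 108 in pMo. On the CPM scale these were 15.9, 2.25 and 3.17, then 0.536, 5.01 and 4.67, then 0.205, 5.25 and 4.72. Library 0 was thus the highest of cMo and the lowest of intMo and pMo. No comparison of all 9 libraries was called, with log2 differences of -1.05 in intMo against cMo (95% interval -3.54 to 1.44, edgeR adjusted p = 0.525) and -1.06 in pMo against cMo (-3.55 to 1.43, edgeR adjusted p = 0.49). Without cMo library 0 they turned to 0.34 and 0.32, neither of them called. In libraries 1 and 2 alone Ly6g was called higher in intMo than in cMo (log2 0.84 ± 0.22, edgeR adjusted p = 0.0254) and in pMo than in cMo (log2 0.89 ± 0.22, edgeR adjusted p = 0.0153). The difference between pMo and intMo was near 0 in both fits, at -0.02 and 0.05 on the log2 scale, with a 95% interval of -2.51 to 2.48 over all 9 libraries.

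Neutrophil and granulocyte genes followed the same libraries. Their 18 genes summed to 14319, 3129 and 3431 CPM in cMo libraries 0, 1 and 2, to 779, 5202 and 4929 CPM in intMo and to 1073, 3445 and 3463 CPM in pMo, with no gene at 0. S100a9, a calprotectin subunit and the most abundant of them, stood at 2618 CPM in cMo library 0 against 397 and 495 CPM in the other cMo libraries. The list was not of 1 kind: in libraries 1 and 2 alone, 10 of 18 were called higher in intMo than in cMo, beside 15.8% of all genes, and 7 lower, beside 11.9%. Ctsg, a protease of primary granules (log2 -3.62, edgeR adjusted p = 0.0057), led the 5 called lower with all 9 libraries, beside 10.4% of all genes. The part of neutrophil-lineage RNA in the Ly6g levels was not tested.

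**Figure D3:**
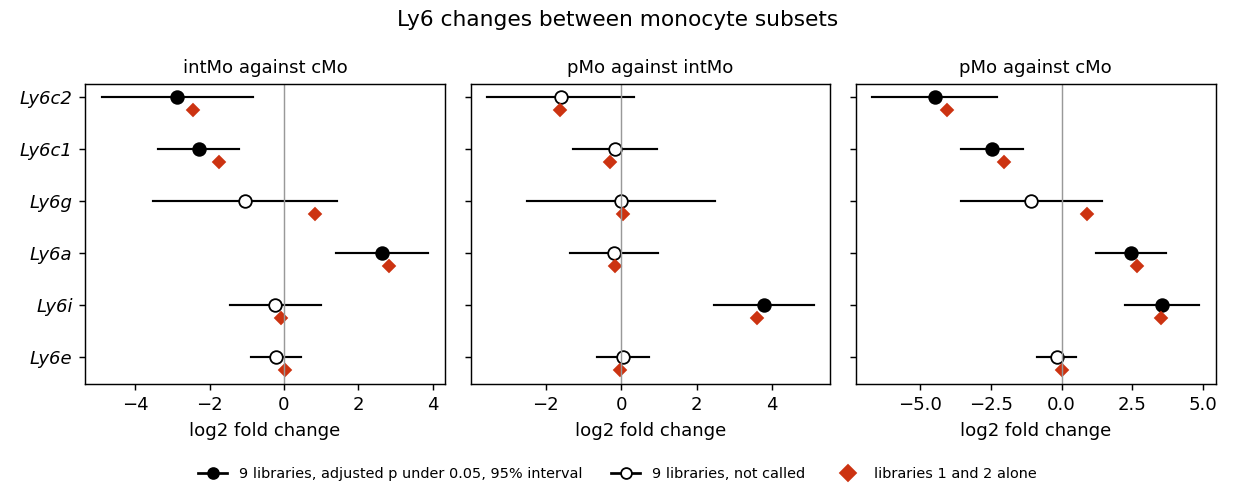
Log2 fold changes of the 6 Ly6 genes in the 3 comparisons, as circles with 95% intervals for all 9 libraries (filled where the edgeR adjusted p was under 0.05) and as diamonds for libraries 1 and 2 alone. Filled circles and diamonds lie on the same side of 0 for all 8 calls, and Ly6g changes side between the fits in both comparisons with cMo.

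Levels of different members were compared only per length, as CPM per kb of the longest protein-coding transcript. In cMo the order was Ly6c2 (1447 ± 230, mean ± SD of 3 libraries), Ly6e (654 ± 51.7), Ly6a (13.7 ± 4.23), Ly6g (7.55 ± 8.11), Ly6i (6.49 ± 2.63) and Ly6c1 (4.18 ± 0.891). The library ranges of Ly6a and Ly6g overlapped, as did those of Ly6g, Ly6i and Ly6c1, so that order is not resolved. In intMo the order was Ly6e (565 ± 214), Ly6c2 (198 ± 148), Ly6a (85.6 ± 43.3), Ly6i (5.5 ± 3.47), Ly6g (3.62 ± 2.65) and Ly6c1 (0.827 ± 0.475). Here the library ranges of Ly6c2 and Ly6a overlapped, as did those of Ly6i and Ly6g and of Ly6g and Ly6c1. Within each intMo library, though, Ly6i stood above Ly6g and Ly6g above Ly6c1, while Ly6c2 and Ly6a changed places between libraries. In pMo the order was Ly6e (580 ± 160), Ly6i (76.2 ± 24.4), Ly6a (74.8 ± 39.6), Ly6c2 (64.7 ± 46.9), Ly6g (3.61 ± 2.95) and Ly6c1 (0.75 ± 0.276). The library ranges of Ly6i, Ly6a and Ly6c2 overlapped there. Within each pMo library Ly6a stood above Ly6c2, at 29.1 against 10.6, 99.3 against 91.9 and 96.1 against 91.6 in libraries 0, 1 and 2. The place of Ly6i beside them changed between libraries, as did the order of Ly6g and Ly6c1, so these are not resolved. The most abundant Ly6 transcript was therefore Ly6c2 in cMo and Ly6e in the other subsets.

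The summed signal of the 6 genes on this scale was 2133 ± 230 in cMo, 858 ± 409 in intMo and 800 ± 273 in pMo. Ly6c2 made up 66%, 65% and 71.8% of it in cMo libraries 0, 1 and 2, 7.7%, 27.7% and 23.8% in intMo, and 2.18%, 9.39% and 9.8% in pMo. Ly6e made up 26.7% to 33.7% in cMo, 60.3% to 82% in intMo and 69.8% to 81.8% in pMo. Ly6a made up 0.512% to 0.767% in cMo, 9.28% to 10.8% in intMo and 6% to 10.3% in pMo. Ly6i made up 0.186% to 0.362% in cMo, 0.396% to 0.708% in intMo and 9.32% to 9.91% in pMo. The Ly6i part of the pMo signal was thus nearly the same in library 0 as in the other libraries, although its CPM differed. Such shares add to a fixed whole, so the fall of Ly6c2 alone raises those of the others, and no test was made on them.

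**Figure D4:**
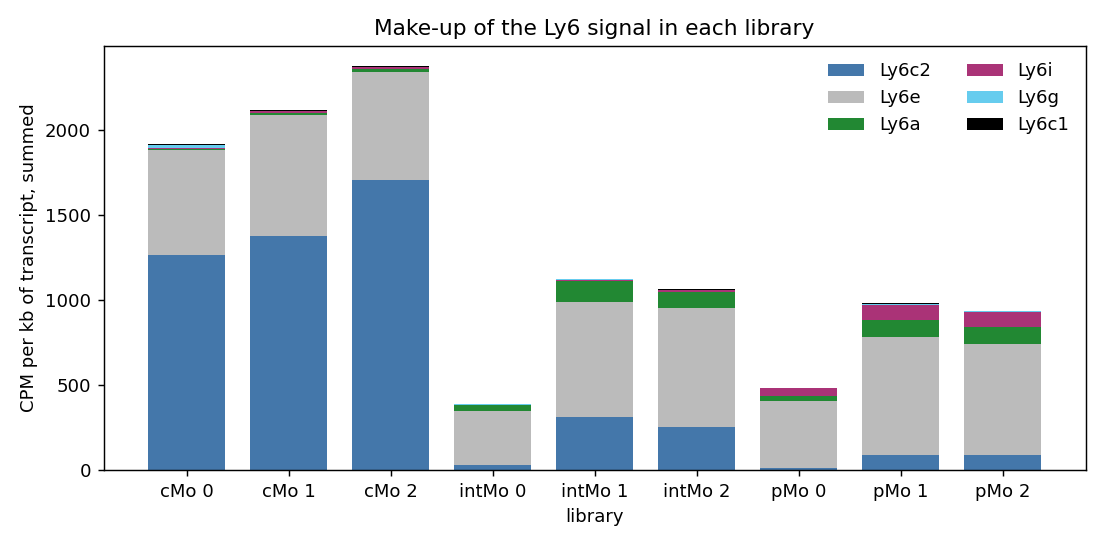
CPM per kb of transcript of the 6 Ly6 genes, stacked for each of the 9 libraries. Ly6c2 makes up most of the cMo bars and Ly6e most of the intMo and pMo bars, Ly6i is visible in pMo, and the bars of intMo and pMo library 0 are the shortest, at 387 and 485 CPM per kb.

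To place each member among other genes, protein-coding genes averaging 20 CPM or more were ranked by likeness of profile, which was the root mean square difference of log2 CPM over the 9 libraries after centring each gene on its own mean. There were 7270 such genes, and smaller values mean closer profiles. Among the 3 genes nearest to Ly6c2 were F13a1 (0.70) and Chil3, a chitinase-like lectin (0.72), both of which are on the list of conventional monocyte genes. Their distances compare with 2.42 for the spread of Ly6c2 around its own mean. Nearest to Ly6c1 came Tuba4a, an alpha tubulin (0.27), the kinase Stk26 (0.28) and the microtubule-associated Mtus1 (0.32), none of which was among the 3 nearest to Ly6c2. The spread of Ly6c1 around its own mean was 1.22. Distances are not scaled for this spread, and the prior count shrinks changes at low counts, so different neighbours do not show different profiles of the pair. Nearest to Ly6a came Oas1g (0.45), Ksr2 (0.48) and Isg15 (0.49), of which Oas1g belongs to the interferon-inducible oligoadenylate synthetases and Isg15 is a ubiquitin-like interferon-stimulated protein.

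The remaining members had other neighbours. Ly6g was nearest to S100a8 (0.46), S100a9 (0.52) and Lcn2 (0.65), which are abundant granule and cytosol proteins of neutrophils, beside a spread of 1.66 around its own mean. Ly6i was nearest to Tiam2, an activator of the GTPase Rac (0.63), Lpl, which encodes lipoprotein lipase (0.79), and Spata13 (0.79). Tiam2 averaged 9.6, 4.23 and 48.5 CPM in cMo, intMo and pMo. Ly6e was nearest to the DNA sensor Cgas (0.16), Gyg, which primes glycogen (0.17), and Mplkip (0.17), beside a spread of 0.39 around its own mean. All of these distances include the library 0 differences and are descriptions over 9 libraries.

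Outside the cluster members, 32 other genes of the Ly6 and urokinase receptor family were listed, of which 30 were in the table, 13 had 0 counts in all 9 libraries and 9 could be tested. In intMo against cMo 2 of the 9 were called higher and 1 lower (24.4% of all genes called), in pMo against intMo 1 higher and 2 lower (4.99%), and in pMo against cMo 1 higher and 1 lower (33.1%). The share called was near that of all genes or below it in both comparisons with cMo, so nothing about the family is read from those counts. Ly6d, a marker of early B-lineage cells, had its highest levels in intMo. It stood at 18.8, 8.83 and 6.96 CPM in intMo libraries 0, 1 and 2, at 0.972, 0.457 and 0.396 CPM in cMo and at 0.493, 0.035 and 0 CPM in pMo. All intMo libraries were above all others. Ly6d was higher in intMo than in cMo (log2 4.23 ± 0.82, edgeR adjusted p = 0.00694) and lower in pMo than in intMo (log2 -6.01 ± 0.94, edgeR adjusted p = 0.00885). The second value rests on 13 counts over the 3 pMo libraries, 12 of them in library 0. Between pMo and cMo, which overlapped, Ly6d was not called in the main fit of all 9 libraries (log2 -1.78 ± 0.95, edgeR adjusted p = 0.184). With the library number added as a block to that fit it was called lower in pMo (log2 -2.02, edgeR adjusted p = 0.0419). With libraries 1 and 2 alone, where pMo had 1 count, Ly6d was called lower in pMo than in intMo (fitted log2 -8.36) and than in cMo (fitted log2 -4.16, edgeR adjusted p = 0.00314), values whose size depends on the prior count and is no bound.

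Genes of lymphoid and plasmacytoid cells moved beside Ly6d. The 16 listed summed to 115 to 179 CPM in cMo, 307 to 355 in intMo and 150 to 200 in pMo, with none at 0 in all libraries. Of 11 tested, 7 were called higher in intMo than in cMo, beside 14.0% of all genes. Bst2, a large part of these sums and among the 7, is also on the list of interferon-stimulated genes. It stood at 44.9 to 80.1 CPM in cMo, 102 to 164 in intMo and 46.7 to 115 in pMo. In pMo against intMo 4 of the 11 were called lower, beside 1.69% of all genes, and 1 higher, beside 3.29%. Siglech, a receptor of plasmacytoid dendritic cells, averaged 4.16 ± 0.707 CPM in cMo, 35 ± 1.57 in intMo and 0.649 ± 0.295 in pMo. Cd8a averaged 0.893 ± 0.0995, 16.4 ± 1.14 and 2.37 ± 0.633 CPM. The part of plasmacytoid or lymphoid RNA in the Ly6d level was not tested.

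Lynx1, which modulates nicotinic receptors, was also highest in intMo, at 2.41, 1.74 and 2.15 CPM in libraries 0, 1 and 2, against 0.393 to 0.875 CPM in the other libraries. It was higher in intMo than in cMo (log2 1.78 ± 0.40, edgeR adjusted p = 0.0125) and lower in pMo than in intMo (log2 -1.82 ± 0.40, edgeR adjusted p = 0.0341), a call lost on leaving out any single library but cMo library 0, with adjusted p up to 0.145. Cd59b, a complement inhibitor whose reads may be shared with its copy Cd59a, stood at 20.5, 11.2 and 10.8 CPM in cMo and at 4.02 to 6 CPM in intMo and pMo. Cd59b was lower in intMo (log2 -1.46 ± 0.29, edgeR adjusted p = 0.00712) and in pMo (log2 -1.58 ± 0.29, edgeR adjusted p = 0.00335) than in cMo, the same directions as the Ly6C genes. Plaur, the urokinase receptor, stood at 122, 135 and 133 CPM in pMo against 77.6 to 97.9 CPM elsewhere. Plaur was higher in pMo than in intMo (log2 0.54 ± 0.12, edgeR adjusted p = 0.0385) and than in cMo (log2 0.48 ± 0.12, edgeR adjusted p = 0.0159). The first Plaur call ended on leaving out any single library but cMo library 0 (edgeR adjusted p up to 0.167). The second ended on leaving out cMo library 1, pMo library 1 or pMo library 2 (edgeR adjusted p up to 0.0611). Lypd6b was not called with all 9 libraries. In libraries 1 and 2 alone it was called higher in pMo than in intMo (log2 1.69, edgeR adjusted p = 0.00225) and than in cMo (log2 1.61, edgeR adjusted p = 0.00109).

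**Figure D5:**
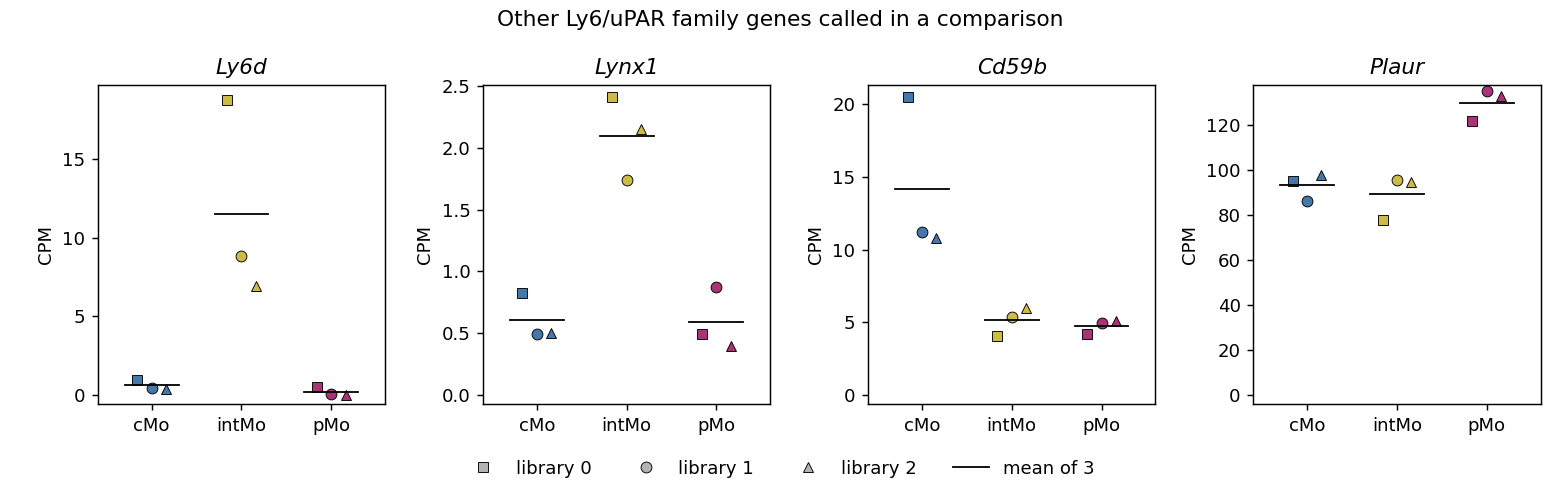
CPM of the 4 other Ly6 and urokinase receptor family genes that were called in a comparison with all 9 libraries, in each library, with a line at the mean of 3 libraries per subset. Ly6d and Lynx1 are highest in intMo, Cd59b in cMo and Plaur in pMo, with no overlap between that subset and the others.

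The genes that make and attach GPI anchors, on which surface display of Ly6 proteins depends, were looked at as a list. Of 28 tested, 2 were called higher in intMo than in cMo (14.0% of all genes were), and in pMo against cMo 2 were higher and 3 lower (17.2% and 15.9% of all genes). In pMo against intMo 0 were called by edgeR (4.99% of all genes), 2 were higher at an unadjusted p under 0.05, and 0 were called by DESeq2. Their summed level was 913 to 1107 CPM in cMo, 899 to 1001 in intMo and 936 to 992 in pMo, so the 3 subsets overlapped. Pgap2, which remodels the lipid of the anchor, was higher in intMo than in cMo (log2 0.67 ± 0.12, edgeR adjusted p = 0.00457). Pigz, a mannosyltransferase of the pathway, was higher in intMo (log2 2.57 ± 0.50, edgeR adjusted p = 0.00661) and in pMo (log2 2.51 ± 0.50, edgeR adjusted p = 0.00501) than in cMo, at 0.18 to 0.914 CPM in cMo. Piga, a subunit of the enzyme of the first step, was lower in pMo than in cMo (log2 -0.97, edgeR adjusted p = 0.0278), a call lost on leaving out cMo library 0 or any single pMo library. Pigt, a subunit of the transamidase that attaches the anchor and the most abundant gene of the list, was called in no comparison.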

How the data were processed

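The deposited table held estimated counts per gene for 9 libraries, made with kallisto 0.46.1 against mm10 per the submitters' processing notes. RNAzol extraction and NEBNext Ultra II stranded mRNA reagents are named per the labels' protocols. Annotation, gene-level summing, filters and strand setting are not stated in the sources used here, so reads of overlapping or antisense genes cannot be told apart. Gene IDs were matched to GENCODE M21 (GRCm38) by their unversioned form, and 46005 of 46517 had a symbol.

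Counts were rounded, filtered with filterByExpr by subset and scaled by TMM. All 9 libraries entered 1 robust quasi-likelihood model of edgeR 4.0.16 (R 4.3.3) with subset as the only term, tested by its F test. CPM is the rounded count divided by the TMM-adjusted library total, and log2 CPM used a prior count of 2. A standard error is the log2 fold change divided by the square root of its F value. Reads carry no molecular identifiers, so Wilson intervals cover counting error only. A chi-square comparison of libraries within a subset found none that agreed within sampling noise. Deviations from the subset means correlated at 0.588 between library 0 of intMo and of pMo. For libraries 1 and 2 of intMo and pMo, same numbers correlated at 0.3 and 0.274, and unlike numbers at 0.403 and 0.279. Library 0 of either subset correlated at -0.487 to -0.378 with libraries 1 and 2 of the other. These values set library 0 apart in both subsets, but do not pair libraries 1 and 2 by number. Deviations cancel out within a subset, so the values of libraries 1 and 2 follow in part from library 0. They can neither show nor exclude a pairing of libraries 1 and 2. With cMo the correlations of same-numbered libraries were -0.143 to 0.23, and the numbers were not taken as a pairing there. The fit was also run on simulated counts, drawn independently for each gene and library. They held no shift shared within library 0 and no reads shared between genes, so that run does not cover these limits.

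The members and gene lists were chosen with earlier results of these data known. Named from each list were its most abundant gene and up to 3 of its largest called changes per comparison, every called family gene, and the 3 genes nearest each member in profile. Some genes that this takes are not reported here. Alternatives were RLE and upper quartile scaling, other filters, DESeq2 1.42.0, unrounded counts, a fit that is not robust, a replicate block, fewer libraries and summed Ly6 genes.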

Additional observations from a re-analysis of the deposited data

How the results depend on the processing

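For the 8 member calls, 154 of 168 alternatives kept direction and call, 10 lost the call (all Ly6c2 in intMo against cMo) and 4 reversed (all with 5 Ly6 genes summed). The lost Ly6c2 calls included no filter (edgeR adjusted p = 0.118) and a filter at 1 CPM (0.0508). Summing Ly6a, Ly6c1, Ly6c2, Ly6g and Ly6i gives all 5 the value of their sum, which is mostly Ly6c2. It was -2.26 on the log2 scale in intMo against cMo (5 members called), -0.23 in pMo against intMo (0 called by edgeR at an adjusted or unadjusted p under 0.05) and -2.49 in pMo against cMo, which reverses Ly6a and Ly6i. In libraries 1 and 2 alone, 2 members were called in pMo against intMo.

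Uncalled differences changed sign as follows. In intMo against cMo, Ly6e was 0.04 in libraries 1 and 2 alone and -0.39 to 0.08 on leaving out single libraries (0.08 without intMo library 0), Ly6g was 0.84 in libraries 1 and 2 and -1.47 to 0.34 on leaving out single libraries (0.34 without cMo library 0), and Ly6i ranged from -0.58 to 0.21 on leaving out single libraries (0.03 without cMo library 2, 0.21 without intMo library 0). In pMo against intMo, leaving out single libraries gave -0.55 to 0.19 for Ly6a (0.14 without intMo library 1, 0.19 without pMo library 0), -0.52 to 0.28 for Ly6c1 (0.28 without intMo library 2, 0.07 without pMo library 0), -0.25 to 0.25 for Ly6e (-0.25 without intMo library 0, -0.10 and -0.05 without pMo libraries 1 and 2) and -0.51 to 0.54 for Ly6g (0.35 and 0.28 without intMo libraries 1 and 2, 0.54 without pMo library 0). There Ly6e was also -0.02 with upper quartile scaling and -0.04 in libraries 1 and 2, and Ly6g 0.05. In pMo against cMo, leaving out single libraries gave -0.31 to 0.05 for Ly6e (0.05 without pMo library 0) and -1.52 to 0.32 for Ly6g (0.32 without cMo library 0), and Ly6g was 0.89 in libraries 1 and 2. The cause was not tested.

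Over all genes, 701 were called in pMo against intMo, but 1352 by DESeq2, 2424 in libraries 1 and 2, 1107 without cMo library 0, 446, 221 and 257 without pMo libraries 0, 1 and 2, and 321 and 303 without intMo libraries 1 and 2. In intMo against cMo the count was 3433, and 2213 with only the compared subsets in the fit. With the replicate number as a block, 3650, 836 and 4961 genes were called in intMo against cMo, pMo against intMo and pMo against cMo, beside 3433, 701 and 4650, and the log2 value of Ly6c2 in intMo against cMo was -3.58 (edgeR adjusted p = 0.0146). The block changed no call of a member, and in pMo against intMo it changed no call of a family gene. In pMo against cMo it added a call of Ly6d as lower (log2 -2.02, edgeR adjusted p = 0.0419). DESeq2 and the fits of only the compared subsets gave no value for a difference among all 3 subsets. The Ly6c1 counts of 5 to 32 in intMo and pMo limit its share to wide intervals.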
